A study of Homo sapiens with 6 samples.

Results

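The 8 mature miRNAs described here are known for their enrichment in brain and retina: hsa-miR-7-5p, hsa-miR-128-3p, hsa-miR-129-5p, hsa-miR-132-3p, hsa-miR-212-3p, hsa-miR-137, hsa-miR-138-5p and hsa-miR-218-5p. They were taken by name, 8 of the 2576 mature miRNAs counted, and each was present under its listed name. Small RNA sequencing was performed on MIO-M1, a spontaneously immortalised human line of Müller glia, and on the extracellular vesicles (EV) that these cells secreted. Whole cell RNA came from wild-type (WT) cultures at passages 22, 24 and 26, here whole cells replicates 1, 2 and 3, and vesicle RNA from WT cultures at passages 23, 25 and 27, here EV replicates 1, 2 and 3. All cultures were grown in medium with foetal calf serum, and per the labels were washed and kept in serum-free medium for 24 h before the supernatant was collected, while the study's methods give a longer period in vesicle-depleted medium and an RNase A treatment of the vesicles. No other genotype or agent was compared, the model is a single line, and RNA was purified with one kit from cell pellets and with another from EV pellets, so that fraction and RNA kit cannot be told apart.

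A miRNA guides a silencing complex to messenger RNAs that pair with its seed, the bases near its 5′ end, and each miRNA hairpin can release a guide from one arm and a usually scarcer partner from the opposite arm. The miRNAs of this group act mainly in neurons, where they adjust excitability, dendritic spines, neurite growth and the exit of progenitors from the cell cycle. Müller cells are the principal glia of the retina, and some of them keep progenitor properties.

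The mature sequences are shown because the seed sets which members can act on the same targets. They were read from RefSeq (GRCh38.p14), which held all 8, and are written 5′ to 3′ in lower case with the seed (bases 2 to 8) in capitals.
hsa-miR-7-5p: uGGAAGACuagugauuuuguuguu
hsa-miR-128-3p: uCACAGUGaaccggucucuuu
hsa-miR-129-5p: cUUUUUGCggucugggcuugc
hsa-miR-132-3p: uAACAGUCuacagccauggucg
hsa-miR-212-3p: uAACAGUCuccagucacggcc
hsa-miR-137: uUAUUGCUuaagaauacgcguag
hsa-miR-138-5p: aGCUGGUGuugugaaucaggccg
hsa-miR-218-5p: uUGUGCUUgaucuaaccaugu
The seed AACAGUC was shared by miR-132-3p and miR-212-3p, and the other 6 members each had a seed of their own within the group. The tables list miR-137 with no arm, and its sequence is that of RefSeq miR-137-3p, matched by its length of 23 bases and by a distance of 784 bases to the neighbouring miR-2682-5p in both sources. The RefSeq form of miR-7-5p is longer than the span over which it was counted. Among the other human miRNAs of the reference only miR-216a-3p and miR-3681-3p carried the seed of a member, that of miR-128-3p. They held at most 4 counts in any library. Among miRNAs with a reference sequence, almost all reads with a member's seed thus belonged to the members. Counted miRNAs without such a sequence were not searched.

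The hairpins were placed on GRCh38 with GENCODE release 29, by gene name, since the build behind the counts is not given in the sources used here. MIR132 (chr17:2049908-2050008) and MIR212 (chr17:2050271-2050380) lay on the same strand with no other gene over them. MIR137 (chr1:98046070-98046171) lay in an exon of the non-coding gene MIR137HG. The remaining members have more than 1 hairpin with the same mature sequence. MIR128-1 and MIR128-2 sat in introns of R3HDM1 (chr2:135665397-135665478) and ARPP21 (chr3:35744476-35744559), and MIR218-1 and MIR218-2 in introns of SLIT2 (chr4:20528275-20528384) and SLIT3 (chr5:168768146-168768255), which encode axon guidance ligands. MIR7-1 overlapped an annotated exon of HNRNPK (chr9:83969748-83969857), MIR7-2 lay opposite MIR3529 (chr15:88611825-88611934) and MIR7-3 in an intron of MIR7-3HG (chr19:4770670-4770779). MIR129-1 (chr7:128207872-128207943), MIR138-1 (chr3:44114212-44114310) and MIR138-2 (chr16:56858518-56858601) overlapped no other gene, and MIR129-2 (chr11:43581394-43581483) lay in introns of the non-coding genes AC068205.1 and AC068205.2. Mature counts do not say which hairpin a molecule came from.

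Counts assigned to miRNAs ranged from 396025 (whole cells replicate 1) to 3990900 (whole cells replicate 2), and EV libraries held 1225541 to 3134561. Levels are given as CPM, the count scaled to a fixed library total, which for molecules of nearly equal length needs no length correction. A count of 0 allowed a level of up to 3 counts, equal to 0.752 to 7.58 CPM in whole cells and 0.957 to 2.45 CPM in EV, and these limits and the Wilson intervals below cover counting error only. The EV libraries held few miRNAs at low counts: 25 to 44 miRNAs had 1 to 9 counts in an EV library, against 298 to 541 in a whole cell library. No 2 libraries agreed within sampling noise. Of 4 Müller glial markers all passed the abundance filter, with 132211 to 134134 CPM in sum in whole cells and 63564 to 99547 in EV. Most of this sum was miR-125b-5p (means 110495 CPM in whole cells and 49536 in EV). The mean of miR-204-5p was also lower in EV (9798 against 2538 CPM). The means of miR-9-5p (9383 against 18155) and miR-99a-5p (3677 against 8138) were higher in EV, with overlapping groups. The neuronal miR-124-3p was at 0 in all 6 libraries. The 3 photoreceptor miRNAs miR-96-5p, miR-182-5p and miR-183-5p summed to 227 to 333 CPM in whole cells and 1151 to 1218 in EV. Mean levels were higher in EV for miR-182-5p (166 against 766 CPM) and miR-183-5p (95.0 against 401). For miR-96-5p the groups overlapped (13.0 against 14.9 CPM). A list of 10 blood, endothelial and serum miRNAs summed to 265 to 1204 CPM in whole cells and 2253 to 3213 in EV. All 6 of its miRNAs past the filter lay higher in every EV library (20.9% of all tested miRNAs did). For miR-451a, miR-142-3p and miR-126-5p this was fixed in advance, since they passed the filter only through EV. For miR-486-5p the difference did not pass edgeR's test (adjusted p = 0.487). miR-451a, miR-144-3p and miR-142-5p were at 0 in all whole cell libraries. The part of serum or of other cells in the differences below was not tested.

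The group as a whole took up a similar share of both fractions, while the order of its members by mean level was not the same. A difference in its make-up between fractions was not tested. Summed over the 8 members, the level was 4868, 3304 and 2683 CPM in whole cells replicates 1 to 3 and 3028, 4216 and 3349 CPM in EV replicates 1 to 3, or between 0.268% and 0.487% of counts. The means of 3619 ± 1126 CPM in whole cells and 3531 ± 614 CPM in EV (SD, n = 3 each) differed by less than the spread between replicates. miR-128-3p supplied 31.2% to 47.1% of the members' sum in whole cells and 44.4% to 59.5% in EV, and was the most abundant member in 5 of the 6 libraries. The exception was whole cells replicate 1, led by miR-138-5p.

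**Figure D1:**
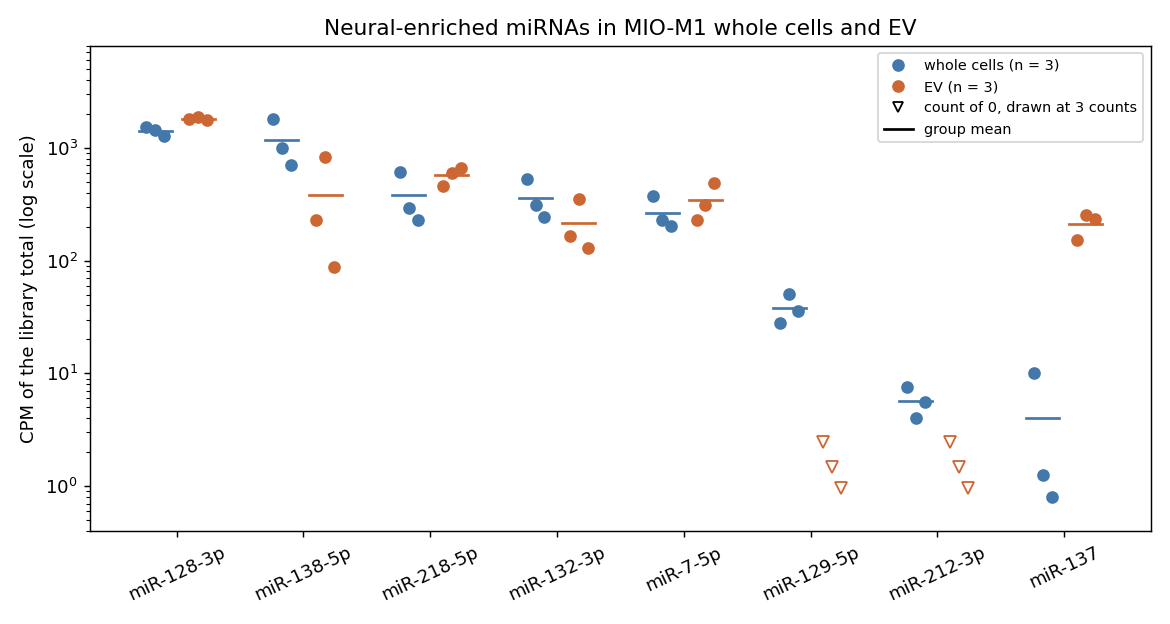
Level of each member in every library, in CPM of the library total on a logarithmic axis, with filled points for the 3 whole cell and 3 EV libraries, a bar at the group mean, and open triangles at 3 counts for libraries with a count of 0. miR-137 lay near the bottom of the whole cell values (mean 4.05 CPM) and at 213 CPM in EV, while miR-129-5p and miR-212-3p had counts in whole cells only.

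In whole cells the order of mean levels was miR-128-3p (1406 ± 130 CPM), miR-138-5p (1160 ± 564), miR-218-5p (379 ± 208), miR-132-3p (359 ± 147), miR-7-5p (266 ± 91.6), miR-129-5p (38.0 ± 11.4), miR-212-3p (5.72 ± 1.79) and miR-137 (4.05 ± 5.24), each as SD with n = 3. The ranges of neighbours overlapped except at 3 steps, between miR-138-5p and miR-218-5p, between miR-7-5p and miR-129-5p, and between miR-129-5p and miR-212-3p. In EV the order was miR-128-3p (1806 ± 61.8), miR-218-5p (575 ± 109), miR-138-5p (381 ± 392), miR-7-5p (342 ± 131), miR-132-3p (215 ± 120) and miR-137 (213 ± 54.5), followed by miR-129-5p and miR-212-3p with no counts. Only miR-128-3p stood clear of its neighbour there, and miR-137 of the members without counts. Ligation efficiency differs between sequences and was not corrected, so the order describes sequenced molecules.

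To ask which members differed in abundance between secreted EV and donor cells, edgeR's quasi-likelihood test was fitted over the 430 miRNAs that reached 5 CPM in 3 or more of the 6 libraries, among them 7 of the 8 members. miR-212-3p did not reach that level. With limits of 0.01 on the adjusted p and 2.5 on the size of the log2 fold change, edgeR called 0 of the 7 members (5.81% of all tested miRNAs were called), 3 members had an unadjusted p below 0.05 (35.8% of all did), and DESeq2 with the same limits called 2 of 7, miR-137 and miR-129-5p (16.7% of all). At an adjusted p below 0.05 with the same fold limit, edgeR called 1 member higher in EV, miR-137 (11.9% of all were), and 1 lower, miR-129-5p (9.77% of all were). After scaling by trimmed mean of M values (TMM), all EV libraries lay above all whole cell libraries for 2 of the 7, miR-137 and miR-128-3p (20.9% of all), and below them for 2, miR-129-5p and miR-138-5p (27.4% of all). For miR-129-5p this was fixed in advance, since with 0 counts in EV it passed the filter only through whole cells. miR-137 reached 5 CPM in whole cells only in replicate 1, so it passed mainly through EV. The median log2 fold change of the 7 members was 0.37, and that of all tested miRNAs was -0.23, between -0.41 and -0.22 under the scaling methods tried. With 7 members, counts of 1 or 2 lay near these shares, and no call rate particular to the group was seen.

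**Figure D2:**
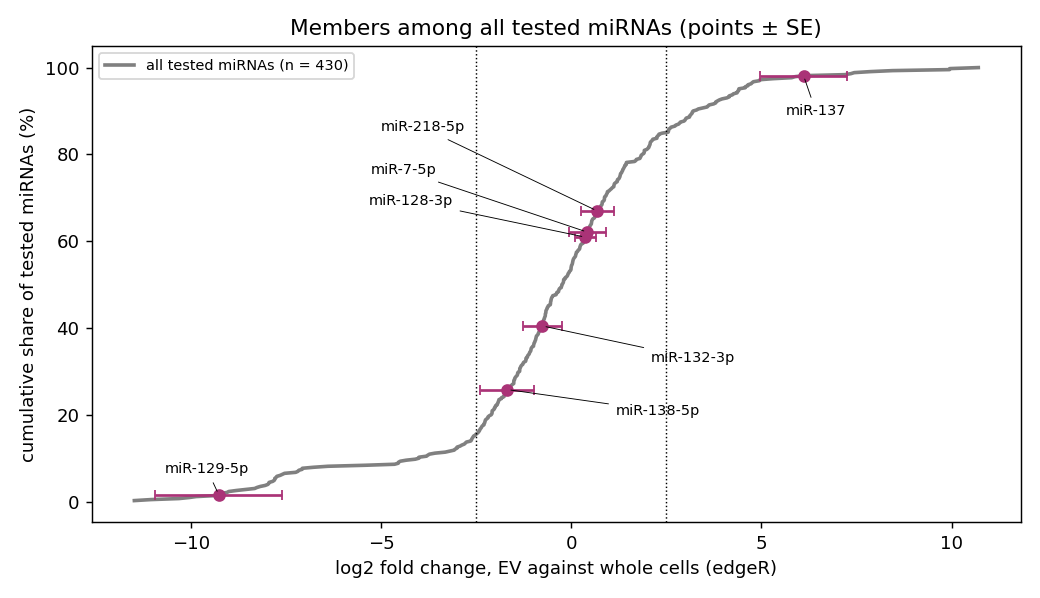
Log2 fold changes of EV against whole cells from edgeR, sorted and drawn as the cumulative share of the 430 tested miRNAs (grey line), with the 7 tested members as points ± standard error and dotted lines at the fold limit of 2.5. The members spread from -9.26 for miR-129-5p to 6.11 for miR-137, with 5 of them between the dotted lines.

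miR-137 was the member most enriched in EV. It limits the proliferation of neural progenitors and represses chromatin regulators such as EZH2. Its counts were 4, 5 and 1 in whole cells replicates 1 to 3, and 185, 518 and 730 in EV replicates 1 to 3. These correspond to 10.1 (95% Wilson interval 3.93 to 26), 1.25 (0.535 to 2.93) and 0.799 (0.141 to 4.52) CPM in whole cells, and to 151, 254 and 233 CPM in EV. The groups did not overlap, and the lowest EV library was 14.9-fold above the highest whole cell library, which was the shallowest one. The group means of 4.05 ± 5.24 and 213 ± 54.5 CPM (SD, n = 3 each) differed 52.5-fold, and the pooled counts, 10 of 5639069 against 1433 of 6398737, differed 126-fold (95% interval 68.5 to 264, counting error only). By edgeR the log2 fold change was 6.11 (SE 1.15, adjusted p = 0.0107), and by DESeq2 5.98 (adjusted p = 4.57e-08). Without whole cells replicate 1, where its level stood apart, edgeR gave 7.32 (adjusted p = 0.00961). Over the 15 alternative settings the edgeR or DESeq2 log2 fold change lay between 5.04 and 7.32 with an adjusted p of at most 0.0380. By mean level miR-137 held rank 452 among all miRNAs in whole cells and rank 142 in EV.

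The 3 miRNAs whose profile over the 6 libraries was most like that of miR-137, by Euclidean distance of centred log2(CPM + 4), were miR-148a-3p (distance 0.887), miR-136-3p (1.00) and miR-101-3p (1.36), against a median distance of 7.20 over all tested miRNAs. miR-148a-3p had 437, 1575 and 454 counts in whole cells and 16095, 25408 and 34974 in EV, with an edgeR log2 fold change of 4.41 against 6.11 for miR-137. miR-136-3p, from an imprinted cluster, had 8, 33 and 6 counts in whole cells and 398, 779 and 730 in EV. Higher levels of these 3 miRNAs in EV follow from their choice by likeness to miR-137.

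miR-129-5p showed the opposite pattern. A brain miRNA, it stood at 27.8, 50.4 and 35.9 CPM in whole cells replicates 1 to 3, with 11 counts in replicate 1 and 45 in replicate 3, and at 0 counts in each EV library. The whole cell mean of 38.0 ± 11.4 CPM (SD, n = 3) was at least 23.4-fold above the mean EV limit of 3 counts per library. edgeR gave an adjusted p of 0.0121 and DESeq2 one of 2.03e-05. The fitted log2 fold change of -9.26 depends on the prior count and is no bound. The scarcity of low counts in the EV libraries, given above, applies to this miRNA and to miR-212-3p, and its part in their absence was not tested. With the replicate number as a block, edgeR's adjusted p was 0.110, and over the other 14 settings it was at most 0.0455. The 3 miRNAs of most similar profile, miR-1226-3p, miR-185-3p and miR-296-5p (distances 1.02, 1.02 and 1.04, median over all 4.24), had 4 to 171 counts per whole cell library and were at 0 in all EV libraries. Their absence from EV follows from the choice by likeness to a profile at 0 there.

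miR-132-3p and miR-212-3p are cut from a common primary transcript that neuronal activity induces through CREB, and they share a seed. miR-132-3p had 208, 1239 and 304 counts in whole cells, and 717 and 405 in EV replicates 2 and 3. In CPM the levels were 525, 311 and 243 in whole cells against 164, 352 and 129.2 in EV, with overlapping groups, and the log2 fold change of -0.75 (SE 0.50) did not pass edgeR's test (adjusted p = 0.337) or DESeq2's (adjusted p = 0.150). miR-212-3p had 3, 16 and 7 counts in whole cells (7.58, 4.01 and 5.59 CPM) and 0 in each EV library. Its whole cell mean of 5.72 ± 1.79 CPM (SD, n = 3) was at least 3.52-fold above the mean EV limit. In a fit with no filter on low counts, the only one that held it, edgeR's adjusted p for miR-212-3p was 0.0402.

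Within whole cells miR-132-3p exceeded its partner by factors of 69.3, 77.4 and 43.4 in replicates 1 to 3, and by 67.3 over the pooled counts. These factors rest on only 3, 16 and 7 counts of miR-212-3p. At that pooled ratio, the EV libraries would have held 2.98, 10.6 and 6.01 counts of miR-212-3p, where 0 were found. On the log2 scale, with 0.5 added to each count, the ratio was 5.82 ± 0.45 in whole cells and 9.60 ± 0.92 in EV (SD, n = 3 each), a difference of 3.78 whose size depends on the value added to the counts of 0. With those counts set to the limit of 3 counts, a bound added after the data were seen, the EV ratios were at least 67.0, 239 and 135, so that only EV replicates 2 and 3 lay above every whole cell library and the bound of replicate 1 lay inside the whole cell range. A two-sided exact permutation test gave p = 0.1, the smallest that 3 against 3 libraries can give. The difference was 2.89 with 1 added in place of 0.5.

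miR-138-5p, which acts in dendrites and restrains spine growth, was the member whose level in EV varied most. Its counts were 709, 3944 and 880 in whole cells (1790, 988 and 703 CPM) and 280, 1684 and 273 in EV (228, 826 and 87.1 CPM), a 9.48-fold range between EV libraries. EV replicate 2 overlapped the whole cell range on library totals but not after TMM scaling. The log2 fold change was -1.68 (SE 0.71) by edgeR with an adjusted p of 0.137 (unadjusted 0.0486), and -1.93 by DESeq2 with an adjusted p of 0.0300. Without EV replicate 2, edgeR gave -2.86 (adjusted p = 0.0290).

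miR-128-3p, among the most abundant brain miRNAs and a brake on neuronal excitability, was the steadiest member. Its level was 1520, 1433 and 1264 CPM in whole cells (602, 5718 and 1583 counts) and 1801, 1870 and 1747 CPM in EV (2207, 3812 and 5475 counts). The groups did not overlap, but the mean difference was only 1.28-fold, and the log2 fold change of 0.37 (SE 0.28) did not pass edgeR's test (adjusted p = 0.408) or DESeq2's (0.16, adjusted p = 0.756). It held rank 60 among all miRNAs in both fractions.

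miR-218-5p, a motor neuron miRNA hosted by the SLIT genes, had 244, 1159 and 288 counts in whole cells and 557, 1229 and 2094 in EV. Its levels of 616, 290 and 230 CPM in whole cells and 454, 603 and 668 CPM in EV overlapped through whole cells replicate 1. The log2 fold change was 0.68 (SE 0.43, edgeR adjusted p = 0.317; DESeq2 adjusted p = 0.611). miR-7-5p, which is bound at many sites by the circular RNA CDR1as, had 147, 905 and 252 counts in whole cells and 281, 634 and 1520 in EV. Its levels of 371, 227 and 201.3 CPM in whole cells and 229, 311 and 485 CPM in EV overlapped, and the log2 fold change of 0.42 (SE 0.49) did not pass edgeR's test (adjusted p = 0.595) or DESeq2's (adjusted p = 0.853). The direction of miR-7-5p was not stable, since its log2 fold change was -0.085 without EV replicate 3. That of miR-218-5p lay between 0.38 and 0.89 with single libraries left out. Both changed sign when a trend with base composition was removed, a setting added after the data were seen.

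Across the 391 tested miRNAs with a reference sequence, the log2 fold change correlated with the share of G and C in the mature sequence (Pearson -0.35, Spearman -0.43, across miRNAs of the same 6 libraries, which are not independent). miR-7-5p (33.3% GC), miR-137 (34.8%), miR-218-5p (38.1%) and miR-128-3p (47.6%) lay below the median of 50.0%, and miR-132-3p (50.0%) lay at it. Above it lay miR-138-5p (56.5%), miR-129-5p and miR-212-3p (57.1% each), the last of which did not pass the filter. With the trend removed, an alternative added after the data were seen, edgeR gave log2 fold changes of -1.11 for miR-7-5p, -0.30 for miR-218-5p and -1.14 for miR-138-5p. For miR-128-3p and miR-132-3p it gave 0.20 and -0.70, and for miR-129-5p and miR-137 it gave -8.94 and 5.04. For miR-137 the adjusted p was then 0.00835, and for miR-129-5p 0.0132. The part of base composition in the smaller differences was not tested further.

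**Figure D3:**
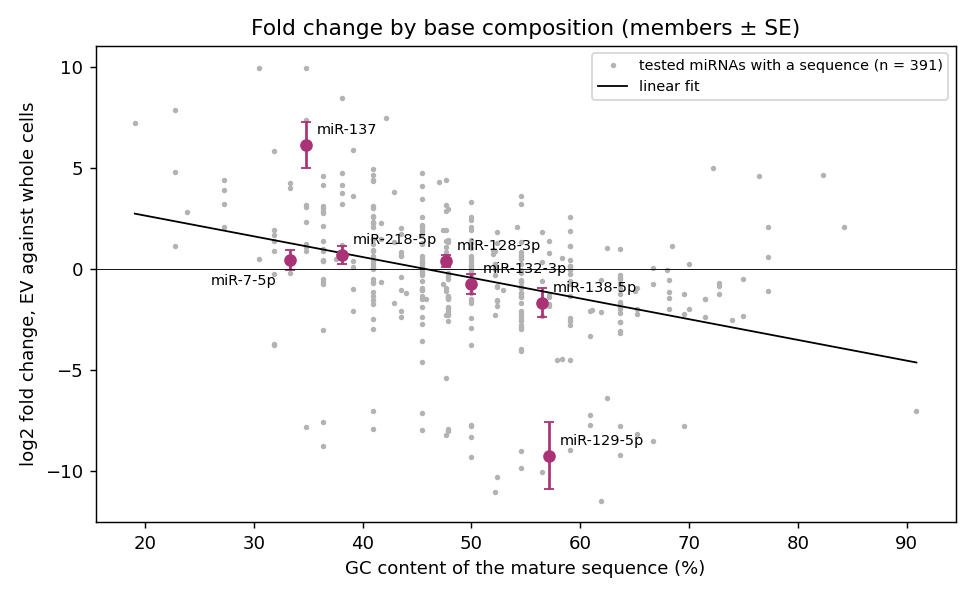
Log2 fold change of EV against whole cells (edgeR) against the GC content of the mature sequence in percent, for the 391 tested miRNAs with a reference sequence (grey), with members as points ± standard error and a linear fit over all. The 5 members between -1.68 and 0.68 lay nearer to the line than miR-137, above it, and miR-129-5p, below it.

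The opposite arms of the members' hairpins numbered 12 in the tables, and only miR-212-5p was more abundant than its partner. Of these 12, 4 passed the filter, and 2 were at 0 in all 6 libraries. With the limits above edgeR called 0 of the 4 (5.81% of all tested miRNAs were called). DESeq2 also called 0 (16.7% of all), but gave no p for miR-132-5p. In edgeR 0 had an unadjusted p below 0.05 (35.8% of all did). Their summed level was 167 to 188 CPM in whole cells and 54.2 to 118 CPM in EV, with no overlap. Several arms had counts in EV replicate 1 and none in the other EV libraries.

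miR-218-1-3p had 16, 236 and 78 counts in whole cells and 12, 0 and 0 in EV. Its log2 fold change of -4.0 (SE 2.08) did not pass edgeR's test (adjusted p = 0.223) or DESeq2's (-4.19, adjusted p = 0.0703). miR-132-5p had 19, 183 and 50 counts in whole cells and 72, 0 and 0 in EV, and miR-212-5p had 4, 23 and 9 against 18, 0 and 0. In EV replicate 1 miR-212-5p was thus sequenced while its partner miR-212-3p was not. miR-128-1-5p had 1, 97 and 36 counts in whole cells and 0 in every EV library, although its partner miR-128-3p was as abundant in EV as in cells. However, miR-128-3p can also come from MIR128-2. Without EV replicate 1, edgeR called 3 of the 4 tested arms lower in EV at an adjusted p below 0.05 with the fold limit (16.3% of all 430 were). These were miR-132-5p, miR-212-5p and miR-218-1-3p, whose other EV libraries were all at 0, so that leaving out the library fixed this count.

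Ratios between arms need no scaling between libraries. miR-138-5p can come from MIR138-1 or MIR138-2 and miR-218-5p from MIR218-1 or MIR218-2, while miR-138-1-3p and miR-218-1-3p are named for a single hairpin. Their ratios may thus mix hairpins. For miR-138 the 5p arm exceeded miR-138-1-3p by 35.5, 21.8 and 24.4 times in whole cells and by 6.51, 10.5 and 1.61 times in EV. The log2 ratio was 4.72 ± 0.35 in whole cells and 2.25 ± 1.40 in EV (SD, n = 3 each), a difference of -2.46 without overlap (two-sided exact permutation test p = 0.1, adjusted p = 0.15 over 3 arm pairs). The level of miR-138-1-3p itself overlapped between fractions, with 20, 181 and 36 counts in whole cells and 43, 161 and 170 in EV. For miR-218 the ratio to miR-218-1-3p was 15.3, 4.91 and 3.69 in whole cells and 46.4 in EV replicate 1, with the 3p arm at 0 in the other EV libraries (exact permutation p = 0.1, adjusted p = 0.15). For miR-132 the ratio to miR-132-5p was 10.9, 6.77 and 6.08 in whole cells and 2.79 in EV replicate 1, below every whole cell library, with the 5p arm at 0 in the other EV libraries (exact permutation p = 0.4, adjusted p = 0.4).

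**Figure D4:**
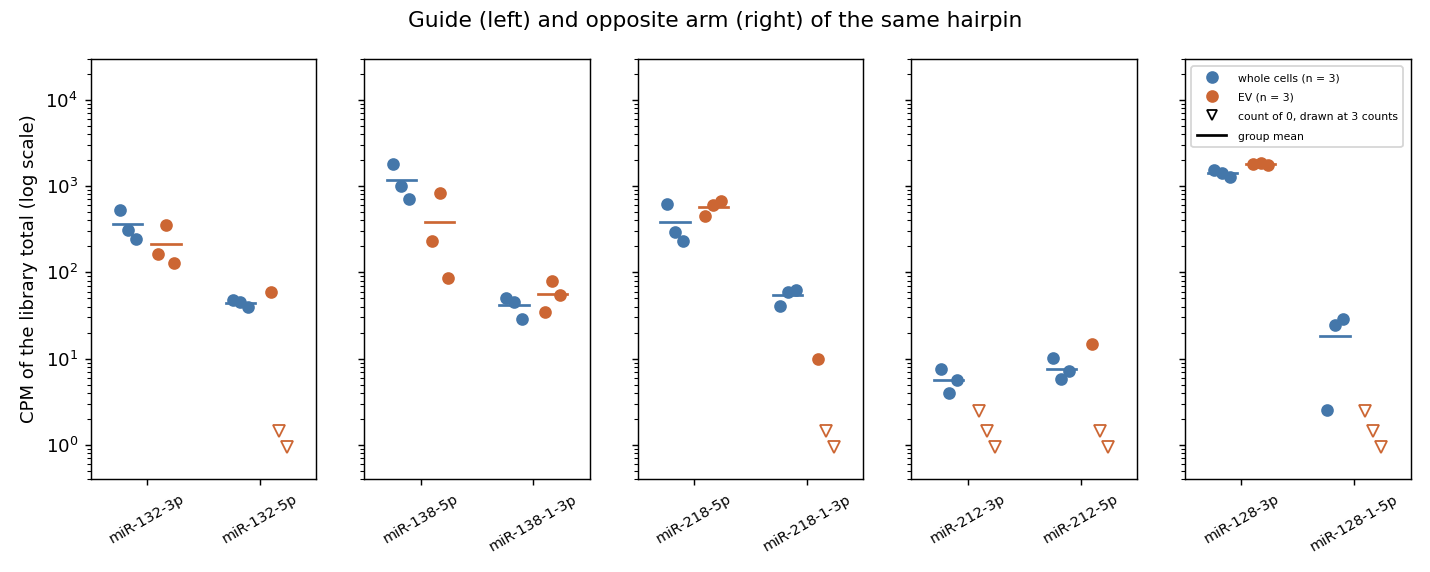
Level in CPM (logarithmic axis) of 5 members (left in each panel) and an opposite arm of their hairpins (right) in the 3 whole cell and 3 EV libraries, with a bar at the mean of groups without a count of 0 and open triangles at 3 counts for libraries with a count of 0. Opposite arms of miR-132, miR-218 and miR-212 had counts in EV replicate 1 alone among EV, and miR-138-1-3p had counts in all 6 libraries.

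Among 12 further neural and glial miRNAs, most were scarce in this line: 3 passed the filter and 5 (miR-124-3p, miR-219a-5p, miR-338-3p, miR-346 and miR-383-5p) were at 0 in all 6 libraries. edgeR called 1 of the 3 with the limits above (5.81% of all tested miRNAs were called). This was miR-9-3p, the opposite arm of the progenitor miRNA miR-9 (edgeR log2 fold change 5.80, SE 0.58, adjusted p = 0.00209). It had 6, 68 and 17 counts in whole cells and 508, 2647 and 3062 in EV. That call at an adjusted p below 0.01 was not made without whole cells replicate 3 or without EV replicate 2. In each of those fits edgeR called 0 of all 430 miRNAs. miR-149-5p was lower in EV by edgeR (-2.08 on the log2 scale, SE 0.51, adjusted p = 0.0192), short of the fold limit. miR-9-5p, at 7471 to 12517 CPM in whole cells and 9271 to 22652 CPM in EV, differed by 1.06 on that scale (SE 0.47, edgeR adjusted p = 0.154). In EV the mean level of miR-9-3p was 897 CPM, against 213 CPM for miR-137.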

How the data were processed

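Libraries were prepared with the QIAseq miRNA kit; per the file headers the deposited values are whole-number counts per mature miRNA, made by the authors with Bowtie 1 and featureCounts 1.5.0-p1 (strand setting 1, miRBase release 20), whereas the methods name Bowtie2. Collapsing of molecular identifiers is not stated, so counts may include PCR copies. The labels number no replicates, which were named here in accession order, and separate cultures are implied only by passage. The counts were used unscaled in edgeR 4.0.16 (TMM, quasi-likelihood, Benjamini-Hochberg over 430 miRNAs reaching 5 CPM in 3 of 6 libraries; R 4.3.3). DESeq2 1.42.0 was the alternative tool, and scripts were tested on simulated data. Ratios within libraries used 0.5 as pseudocount. Named miRNAs were all members, all opposite arms (with values from 10 counts), the fixed neural list, seed relatives and the 3 nearest profiles of the members with the highest and lowest fold change. miR-128-1-5p and the other arms were matched by name. Members and lists were chosen with earlier results of these data known. P-values measure the spread between these libraries.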

Additional observations from a re-analysis of the deposited data

How the results depend on the processing

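The number of members called by edgeR was 0. It was 2 with DESeq2 (16.7% of all tested miRNAs were called), 2 with no filter on low counts (3.79%), 2 with 5 CPM required in every library of a group (17.6%), 2 at an adjusted p below 0.05 with the fold limit (21.6%) or without it (28.6%), and 1 with the GC trend removed (5.88%), a setting added after the data were seen. It was 0 with RLE factors, library totals, upper-quartile factors and thinning to the smallest library, and 0 to 1 with single libraries left out, where the call was miR-137 without whole cells replicate 1. The members called under these settings were miR-137 and miR-129-5p, and at an adjusted p below 0.05 with the fold limit miR-138-5p also passed without EV replicate 2. The count over all tested miRNAs moved from 25 to 72 with DESeq2 and to 0 without whole cells replicate 3 or without EV replicate 2. The log2 fold change of miR-7-5p ran from -0.085 to 0.49 with single libraries left out and was -1.11 with the GC trend removed, and that of miR-218-5p was -0.30 there. The cause was not tested. Every other log2 fold change kept its direction. The summed level moved by less than the spread between replicates. Replicate numbers do not pair the libraries (correlations of same-numbered deviations 0.02, 0.04 and -0.02). With the replicate block 0 members were called, and the log2 fold change of miR-137 was 6.52 (edgeR adjusted p = 0.0204). Counts of 0 in EV, for miR-212-3p and for opposite arms, were not distinguishable from levels under 3 counts. Among the opposite arms, miR-138-1-3p had counts in every EV library. miR-132-5p, miR-212-5p and miR-218-1-3p had counts in EV replicate 1 alone, which was the shallowest EV library. The part of depth in these counts of 0 was not tested.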
